A study of Mus musculus with 69 samples.

Results

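Cells lacking p53 were compared with WT cells of the same parental clone at 96 h of gastruloid development, across all genes. Gastruloids are aggregates of mouse embryonic stem (mES) cells that exit pluripotency, form mesoderm at one pole and elongate. The comparison took 6 of the 69 RNA-seq libraries: 3 of p53KO-emiRFP cells sorted from WT+p53KO gastruloids and 3 of WT-emiRFP cells sorted from WT+WT gastruloids. All cells derived from E14Tg2A mES cells. WT-emiRFP cells carried an H2B-emiRFP670 reporter driven by the CAG promoter, and the p53KO-emiRFP line was 1 clone made from them with Cas9, selected with the MDM2 inhibitor Nutlin-3a and homozygous for a frameshift in Trp53. In both gastruloid types the partner was WT-mCherry, a separate WT clone with an H2B-mCherry reporter driven by EF1α. WT+WT gastruloids were seeded with 150 WT-mCherry and 150 WT-emiRFP cells, and WT+p53KO gastruloids with 150 WT-mCherry and 25 p53KO-emiRFP cells. Both received a pulse of CHIR99021, a Wnt pathway agonist, from 48 to 72 h. Genotype and gastruloid type therefore changed together in this comparison and cannot be told apart within it, nor can the loss of p53 be told apart from other features of the single p53KO clone. For that reason most gene groups are also given against the WT-mCherry cells sorted from the same WT+p53KO gastruloids, and several beside the difference between both WT clones in WT+WT gastruloids.

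p53, encoded by Trp53, is a transcription factor that is held at a low level by the ubiquitin ligase MDM2 and accumulates under stress. It activates genes that halt the cell cycle, trigger apoptosis, repair DNA and feed back on p53 itself. In the early mouse embryo and in pluripotent cells, p53 also takes part in cell competition, in which cells of lower p53 activity displace neighbours of higher activity, and in the exit from pluripotency.

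Total counts of the 6 libraries ranged from 48035718 to 66543495 reads, and those of all 69 from 26722541 to 72981570. Of the 55367 genes in the table, 18356 passed the count filter. Values are read counts divided by median-of-ratios size factors, referred to as normalised read counts, and fold changes are p53KO-emiRFP over WT-emiRFP unless another pair is named. A gene was called when its edgeR quasi-likelihood adjusted p was below 0.05. Trp53 RNA was at 1726, 1728 and 1712 normalised reads in the p53KO libraries against 15699.8, 16751 and 15843 in the WT-emiRFP libraries, a log2 fold change of −3.23 ± 0.0427 (SE) and an edgeR adjusted p = 1.9e-15. Its level thus matched the labels in each of the 6 libraries. At 0 h, before aggregation, the same clones already had 2484 ± 136 against 25497 ± 1924 (SD, n = 3 per group), so the p53KO clone carried about the same share of Trp53 RNA before and during culture. H2bc14, a histone H2B gene whose level followed the emiRFP clones, was at 8079.8, 9203 and 7525 in p53KO cells and 7566, 8767 and 8404 in WT-emiRFP cells, against 155, 328 and 112 in the WT-mCherry cells of the WT+p53KO gastruloids.

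At 96 h, 4269 of the 18356 genes (23.3%) were called, 1735 higher in p53KO cells (9.45%) and 2534 lower (13.8%), and counts of gene groups at 96 h are set against these shares. The median log2 fold change of all genes tested was −0.01. Large changes were mostly decreases: of the 982 called genes (5.35%) whose absolute log2 fold change was at least 1, 831 were lower (4.53%) and 151 higher (0.823%). Replicate numbers paired the libraries, and with the replicate number as a block 7081 genes (38.6%) were called, 17.4% of the genes higher and 21.1% lower. Without replicate 1 the count fell to 1848.

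**Figure D1:**
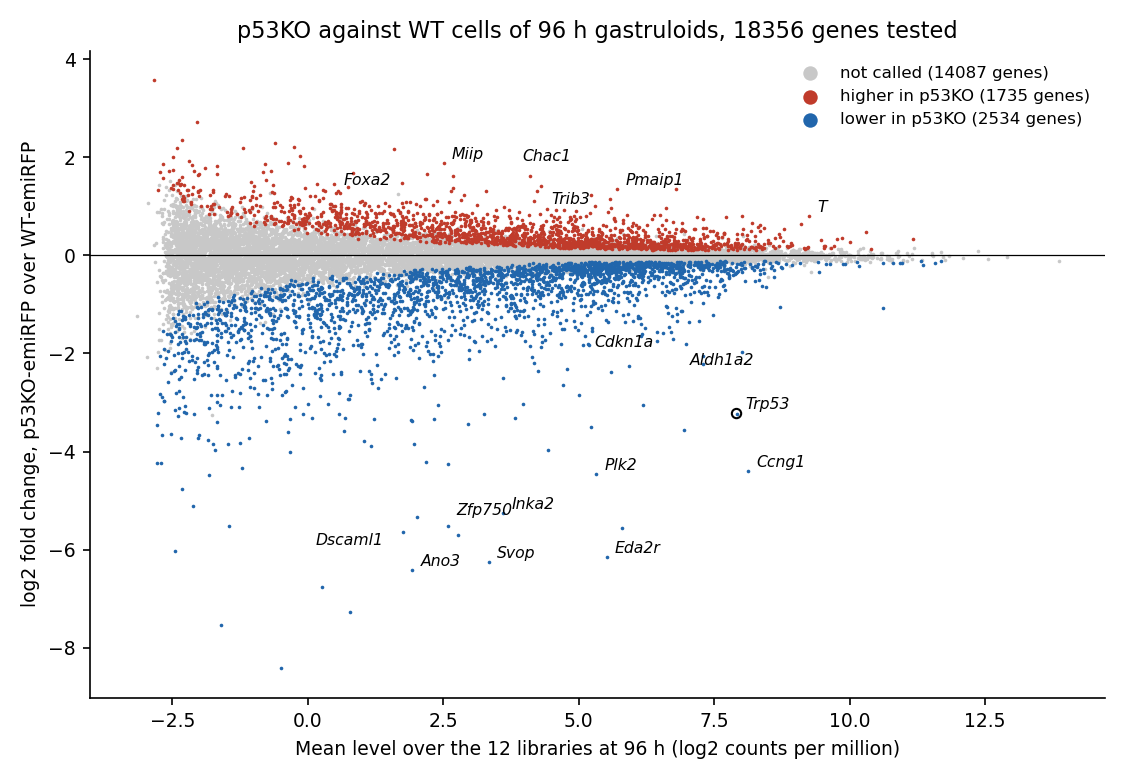
Log2 fold change of p53KO-emiRFP over WT-emiRFP at 96 h (y axis) against mean level in log2 CPM, counts scaled to equal library totals (x axis) for the 18356 genes tested, with genes of adjusted p below 0.05 in red (1735 higher) and blue (2534 lower). The points reaching below −4 are lower in p53KO cells with no counterpart above 4.

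Feedback and growth arrest targets of p53 were strongly reduced in p53KO cells. Of 20 listed genes, all tested, 18 were called lower and none higher, and their median log2 fold change was −1.26. Ccng1, which encodes cyclin G1 and acts in p53 feedback, had 941, 1017 and 887 normalised reads in p53KO cells against 20234, 18498 and 21052 in WT-emiRFP cells, a log2 fold change of −4.39 ± 0.077 (SE) and an edgeR adjusted p = 4.9e-14. Plk2, a polo-like kinase that slows the cycle after damage, had 114, 159 and 103 against 2997, 2580.1 and 2619, a log2 fold change of −4.47 ± 0.15 (SE) and an edgeR adjusted p = 4.9e-11. No p53KO library came within a factor of 10 of any WT-emiRFP library for either gene. Cdkn1a, which encodes the CDK inhibitor p21, had 2259, 2463 and 1825 against 6114, 6109.9 and 5688, a log2 fold change of −1.45 ± 0.10 (SE) and an edgeR adjusted p = 1.4e-07. Mdm2, the ligase that degrades p53, had 2667, 2530.4 and 2686 against 7016, 6147 and 6869, a log2 fold change of −1.34 ± 0.0741 (SE) and an edgeR adjusted p = 1.2e-08. Both groups stayed apart for these genes as well, yet p53KO cells kept 36.5% of the WT-emiRFP mean for Cdkn1a and 39.4% for Mdm2, against 4.76% for Ccng1.

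The remaining members of the group spanned a wide range. Trp53inp1, a promoter of p53 activity and autophagy, had a log2 fold change of −3.56 ± 0.10 (SE), Phlda3, an inhibitor of AKT, −3.05 ± 0.11, and Btg2, an antiproliferative cofactor, −2.25 ± 0.14. Psrc1 (−2.22) and Gtse1 (−1.34), which act on the mitotic spindle, were lower too, as was Zmat3, an RNA-binding regulator of splicing, at −2.06. Smaller decreases were called for Mdm4, the partner of MDM2 (−0.65), Sesn2, a sestrin that restrains mTORC1 (−0.75), Ppm1d, the phosphatase that switches p53 signalling off (−0.45), and Fbxw7, a substrate receptor of an SCF ubiquitin ligase (−0.27). Plk3 (−0.10, adjusted p = 0.61) and Sesn1 (0.00, adjusted p = 0.99) were not called. Sesn1, a sestrin like Sesn2, had 1179.8, 1165 and 1149.6 normalised reads in p53KO cells and 1120.1, 1180.4 and 1192 in WT-emiRFP cells, so the libraries of both groups overlapped.

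Against WT-mCherry cells of the same gastruloids the group was lower as well, with 17 of 20 called lower and a median of −1.48, where 14.6% of all genes were lower. None of the 20 was called between WT-emiRFP and WT-mCherry cells of WT+WT gastruloids, where 2.15% of genes were called, 1.26% higher and 0.893% lower (list median 0.12). With the replicate block, 8 were higher and 1 lower in WT-emiRFP cells, where 15.9% of all genes were called (8.77% higher and 7.18% lower). For Cdkn1a the fold change against WT-mCherry was −1.77 and the difference between WT clones 0.11 (adjusted p = 0.65). For Ccng1 these were −4.38 and 0.17 (adjusted p = 0.21, and 0.0093 with the block).

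**Figure D2:**
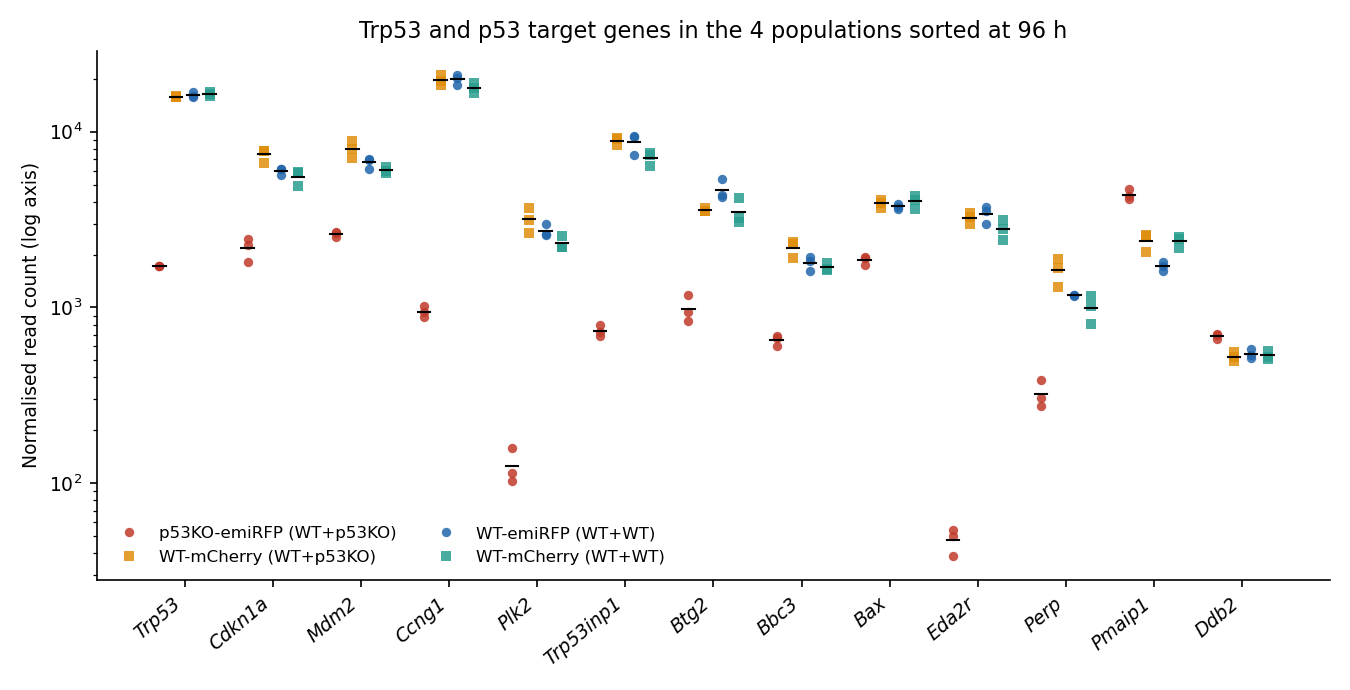
Normalised read counts on a log axis of Trp53 and 12 p53 target genes in the 3 libraries of each of the 4 populations sorted at 96 h, with black bars for group means. For Trp53, Ccng1, Plk2 and Eda2r the p53KO-emiRFP points lie far below the 3 WT populations, whereas for Pmaip1 they lie above them.

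The p53 response element is a pair of decamer half-sites with a short spacer. Promoter windows from RefSeq (GRCm38.p6) were searched for it from 250 bases upstream of each annotated start, allowing 2 mismatches over the 20 consensus bases and spacers of 0 to 13 bases. The consensus reads alike on both strands, so 1 search covered both. A match was present in 1046 of the 27025 genes with a window (3.87%) and in 7 of the 42 listed p53 target genes with a window (16.7%). Most of these were feedback and growth arrest targets (5 of 17), with 1 of 11 apoptosis targets and 1 of 14 repair and metabolism targets. A match is a description of the letters and not a measured binding site. The windows of 5 genes that were lower in p53KO cells are printed with 30 bases on either side and the half-sites in capitals. Cdkn1a is at chr17:29090876-29090967 on the + strand, with 0 mismatches and a spacer of 12 bases. Ccng1 is at chr11:40755432-40755511 on the − strand, with 1 mismatch and no spacer. Inka2, among the strongest decreases described further on, is at chr3:105705325-105705416 on the + strand, with 1 mismatch and a spacer of 12 bases. Rps27l is at chr9:66946266-66946345 on the + strand, with 1 mismatch and no spacer. Bax is at chr7:45467049-45467129 on the − strand, with 2 mismatches and a spacer of 1 base.
Cdkn1a: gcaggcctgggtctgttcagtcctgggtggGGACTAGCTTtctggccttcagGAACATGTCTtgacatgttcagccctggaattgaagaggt
Ccng1: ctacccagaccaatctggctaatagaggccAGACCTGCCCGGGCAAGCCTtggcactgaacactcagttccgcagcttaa
Inka2: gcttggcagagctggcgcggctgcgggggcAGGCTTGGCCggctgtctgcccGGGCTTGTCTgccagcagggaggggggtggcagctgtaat
Rps27l: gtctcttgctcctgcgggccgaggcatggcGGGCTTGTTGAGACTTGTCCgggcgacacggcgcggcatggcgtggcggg
Bax: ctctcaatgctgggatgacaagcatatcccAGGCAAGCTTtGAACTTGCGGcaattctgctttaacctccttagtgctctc
The other listed targets with a match were Gadd45a, a stress-induced growth arrest gene (−0.56), Ckap2, a spindle protein gene (−0.75), and Sesn1, with 2 mismatches and a spacer of 3 bases, which was not called (0.00, adjusted p = 0.99). For each gene the match with the fewest mismatches over all spacers was marked, and bases further upstream were not searched. The printed Cdkn1a stretch also holds an adjacent pair without a spacer that was not marked. Mismatch numbers were therefore not set against the size of the decrease.

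p53 targets that act in apoptosis were lower with 1 clear exception. Of 14 genes, 10 were lower and 2 higher, with a median of −1.12. Eda2r, a death-domain receptor of the TNF receptor family, had 54.6, 50 and 38.8 normalised reads in p53KO cells against 3551, 2978 and 3739 in WT-emiRFP cells, a log2 fold change of −6.16 ± 0.15 (SE) and an edgeR adjusted p = 1.1e-12. Bbc3, which encodes the BH3-only protein PUMA, had 607, 689.8 and 672 against 1609.9, 1937 and 1836, a log2 fold change of −1.45 ± 0.0903 (SE) and an edgeR adjusted p = 4.5e-08. Bax, the effector that opens the outer mitochondrial membrane, had 1903, 1925 and 1744 against 3628, 3888 and 3746, a log2 fold change of −1.01 ± 0.0648 (SE) and an edgeR adjusted p = 5.9e-08. Each of these genes separated the p53KO from the WT-emiRFP libraries. Perp, a membrane protein of desmosomes linked to p53-dependent death (−1.87 ± 0.15, SE), the death receptor genes Tnfrsf10b (−1.82 ± 0.0464) and Fas (−2.22 ± 0.24), and Apaf1, the scaffold of the apoptosome (−1.24 ± 0.0582), were lower as well. Fas was scarce in both groups, with 9.22, 10.7 and 10.3 normalised reads in p53KO cells and 52.5, 42.9 and 45.3 in WT-emiRFP cells.

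Pmaip1, which encodes the BH3-only protein NOXA, went the other way. Its normalised reads were 4709, 4277 and 4156 in p53KO cells and 1816, 1722 and 1616 in WT-emiRFP cells, a log2 fold change of 1.35 ± 0.0853 (SE) and an edgeR adjusted p = 5.3e-08. Against the WT-mCherry cells of the same gastruloids, at 2556, 2579 and 2065, the fold change was 0.87 (adjusted p = 3.6e-06). Pmaip1 also differed between the WT clones, with a log2 fold change of −0.47 for WT-emiRFP over WT-mCherry (adjusted p = 0.01, up to 0.23 in 2 alternatives that lost the call). Across time points the p53KO minus WT-emiRFP difference of Pmaip1 was −0.33 at 0 h, 1.01 at 72 h and 0.71 at 120 h. Bak1, an effector like Bax, was also called higher (log2 fold change 0.37, adjusted p = 0.017), but this call was lost in 4 of the settings that leave out a library or replicate. Against WT-mCherry the list gave 1 higher and 11 lower (2 and 11 with the replicate block).

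Targets of p53 in DNA repair and metabolism were split. Of 18 genes, 10 were lower and 3 higher, with none higher without replicate 1, 1 higher without any one of WT-emiRFP replicates 1 and 3 and p53KO-emiRFP replicates 1 and 2, and 2 without replicate 2 or 3. Ak1, an adenylate kinase, had 321, 300.2 and 324 normalised reads against 2197, 2326 and 2267, a log2 fold change of −2.84 ± 0.0611 (SE) and an edgeR adjusted p = 5.7e-13. Slc19a2, a thiamine transporter (−2.38 ± 0.0787, SE), Dcxr, a xylulose reductase (−2.36 ± 0.11), and Mgmt, which removes alkyl groups from guanine (−2.11 ± 0.11), were lower, as were Polk, a translesion polymerase (−1.64), and Ercc5, a nuclease of nucleotide excision repair (−1.22). Ddb2, which recognises UV lesions, was by contrast at 699.5, 660.0 and 708 normalised reads in p53KO cells and 514, 578 and 535 in WT-emiRFP cells, a log2 fold change of 0.35 ± 0.0747 (SE) and an edgeR adjusted p = 0.0036. This call was lost without replicate 1 (adjusted p = 0.1). Against WT-mCherry, 9 of the 18 were lower and 2 higher (9 and 4 with the replicate block), and between the WT clones 2 were higher in WT-emiRFP cells (6 and 1 lower with the replicate block). Rps27l, a ribosomal protein paralog, was lower by a small amount (−0.63 ± 0.0484). Trp73, the p53 family member p73, was at 252, 266 and 171 against 488, 524 and 449.8 normalised reads, a log2 fold change of −1.09 ± 0.17 (SE) and an edgeR adjusted p = 3.5e-04, and Trp63 did not pass the count filter.

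The 10 largest decreases among genes with a mean of at least 1 log2 CPM were Ano3 (−6.41), Svop (−6.26), Eda2r (−6.16), Gm37795 (−5.70), Dscaml1 (−5.65), Inpp5d (−5.55), Zfp750 (−5.51), Scn3b (−5.34), Inka2 (−5.26) and Plk2 (−4.47). Inpp5d, which encodes the inositol phosphatase SHIP1 of blood cells, had 91.5, 90.5 and 63 normalised reads in p53KO cells and 4170.1, 3770.1 and 3558 in WT-emiRFP cells. Svop, a synaptic vesicle protein, had 10.8, 11.7 and 7.76 against 769, 758 and 799.8. Zfp750, a transcription factor of epidermal differentiation, had 8.46, 8.52 and 6.9 against 379, 333 and 392. The p53KO libraries held at most 1 read for every 20 of the WT-emiRFP libraries for these 3 genes. Ano3, a calcium-activated scramblase, had 1.54, 5.32 and 1.73 against 246, 196 and 267, so its fold rests on a handful of reads in p53KO cells. The decrease of Inpp5d was −2.38 at 0 h and −4.55 at 144 h, and that of Svop −2.04 and −3.85. Against WT-mCherry at 96 h the fold changes were −5.60 for Inpp5d, −6.33 for Svop and −6.09 for Zfp750.

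Apoptosis genes outside the p53 target lists changed in both directions. Of 18 genes tested, 5 were higher and 2 lower, where 9.45% of all genes were higher and 13.8% lower (1 and 2 without replicate 1, and likewise without replicate 2). Mcl1, an anti-apoptotic BCL2 relative, was lower (log2 fold change −0.47, adjusted p = 4.7e-05), and so was Bcl2l1, which encodes BCL-XL (log2 fold change −0.30, adjusted p = 3.2e-04). Bmf, a BH3-only gene, was higher (log2 fold change 0.41, adjusted p = 0.0021). Against WT-mCherry the list had 2 higher and 2 lower (5 and 2 with the replicate block). Of 26 genes of S phase and mitosis, 1 was higher and 1 lower, with a median of 0.02 and a range from −0.26 to 0.13. No more than 2 were called in either direction with any library or replicate left out, and with the replicate block 4 were higher and 3 lower. The lower gene was Cdc20, the mitotic activator of the anaphase-promoting complex (log2 fold change −0.26, adjusted p = 0.0019). Against WT-mCherry the same list had 7 higher and 1 lower (9 and 1 with the replicate block), with a median of 0.04, and between the WT clones 3 were lower in WT-emiRFP cells (13 with the block) and none higher. Among 10 CDK inhibitors and D cyclins, 3 were higher and 2, Cdkn1a among them, lower (3 and 4 with the replicate block, 1 and 2 without replicate 1), and against WT-mCherry 2 higher and 4 lower (3 and 4 with the replicate block). Cdkn1c, which encodes p57, was higher at 2085, 2526 and 1967 against 1243, 1439 and 1066 normalised reads (log2 fold change 0.81, adjusted p = 1.2e-04), and Cdkn2b, which encodes p15, was lower (log2 fold change −1.05, adjusted p = 4.9e-04).

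Naive pluripotency genes, which mES cells express and the early epiblast switches off, were lower in p53KO cells. Of 14 genes, 11 were lower and none higher, with a median of −1.09. With the replicate block 11 were lower and 2 higher, and leaving out any library or replicate gave 11 lower. Esrrb, an orphan nuclear receptor of naive cells, had 2334, 2025 and 2086 normalised reads in p53KO cells against 6539, 6478 and 5979 in WT-emiRFP cells, a log2 fold change of −1.56 ± 0.0786 (SE) and an edgeR adjusted p = 4.6e-09. Nanog, a homeodomain factor of the pluripotency network, had 3245, 3313 and 2863 against 7429, 6787 and 6372, a log2 fold change of −1.13 ± 0.0931 (SE) and an edgeR adjusted p = 8.9e-07. Zfp42, also known as Rex1, had 2833, 2462 and 2682 against 6452, 6132 and 5531, a log2 fold change of −1.18 ± 0.0774 (SE) and an edgeR adjusted p = 7.7e-08. The p53KO libraries lay below the WT-emiRFP libraries for each. Tfcp2l1 (−1.61 ± 0.091, SE), Nr0b1 (−1.80 ± 0.11), Tbx3 (−1.37 ± 0.0778), Klf2 (−0.92 ± 0.12) and Klf4 (−0.87 ± 0.0981), all transcription factors of the naive state, were lower in turn. Against WT-mCherry the counts were 11 lower and 1 higher, the higher one being Dppa3, at 0.58 (adjusted p = 0.025, up to 0.18 in 2 alternatives that lost the call). Between the WT clones none of the 14 was called, and with the replicate block 8 were lower and 1 higher in WT-emiRFP cells. In bulk populations, fewer cells expressing these genes and less RNA per cell cannot be told apart.

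This difference in naive genes was not constant over time. Nanog differed by −0.42 at 0 h (adjusted p = 0.0073), −0.44 at 48 h (adjusted p = 4.3e-06), −0.10 at 72 h (adjusted p = 0.24) and −2.81 at 120 h (adjusted p = 8.1e-12), with 2514 ± 119.5 normalised reads in p53KO and 17682 ± 777 in WT-emiRFP cells at 120 h (mean ± SD, n = 3). Over the list, 6 of 14 genes were lower and 1 higher at 0 h, where 4.16% of all genes were lower and 1.97% higher. At 48 h 2 were lower and 5 higher, with a median of 0.15, where 11.7% of all genes were lower and 10.3% higher. After that, 7 of 14 genes were lower at 72 h, 11 at 96 h and 14 of 14 at 120 h, where 15.7%, 13.8% and 23.7% of all genes were lower. Genes of formative and primed pluripotency showed no common direction at 96 h, with 2 of 14 higher and 2 lower (5 and 4 with the replicate block, 1 and 0 without replicate 1, 2 and 0 without replicate 2, and 1 and 1 without WT-emiRFP replicate 1 or p53KO-emiRFP replicate 2). Against WT-mCherry the counts were 2 higher and 6 lower (4 and 9 with the replicate block). Dnmt3b, a de novo DNA methyltransferase, was the most clearly changed of them, at 18564, 19263 and 16959 against 12848, 13811 and 12074 normalised reads (log2 fold change 0.50, adjusted p = 1.1e-04). Pou5f1, which encodes OCT4, was at 11751, 13711 and 10574 against 10878, 12219.8 and 9535 and was not called (adjusted p = 0.53, and 0.019 with the replicate block).

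Genes of the caudal epiblast, the posterior progenitor zone that feeds the elongating axis, were higher in p53KO cells where they were called, with 1 exception. Of 15 genes, 7 were higher and 1, the ligand gene Wnt5a (log2 fold change −0.42, adjusted p = 0.014, up to 0.1 in 6 alternatives that lost the call), was lower, where 9.45% of all genes were higher. The other 7 were not called, and with the replicate block 9 were higher and 2 lower. The median of the 15 was 0.44. Cdx2, a caudal homeobox gene, had 21957, 20679.7 and 22588 normalised reads in p53KO cells against 12496, 15456 and 14575 in WT-emiRFP cells, a log2 fold change of 0.62 ± 0.0675 (SE) and an edgeR adjusted p = 1.4e-05. Evx1, an even-skipped homeobox gene of the posterior streak, had 5878, 5541 and 6683 against 3062, 3609.9 and 3598, a log2 fold change of 0.82 ± 0.0804 (SE) and an edgeR adjusted p = 5e-06. The groups did not overlap for either gene. Nkx1-2, a marker of neuromesodermal progenitors (0.55 ± 0.0669, SE), Fgf8 (0.53 ± 0.079) and Wnt3a (0.54 ± 0.0647), ligands of the caudal zone, and Epha1, an ephrin receptor (0.53 ± 0.0826), were higher too. Against WT-mCherry, 9 of 15 were higher and none lower, where 9.02% of all genes were higher (14 with the replicate block), with 0.46 for Cdx2 and 0.59 for Evx1. Between the WT clones none was called, and with the block 5 were lower and 1 higher in WT-emiRFP cells.

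Genes of presomitic and paraxial mesoderm, the tissue that segments into somites, went the opposite way. Of 14 genes tested, 10 were lower and none higher, with a median of −0.85. With the replicate block 12 were lower and 1 higher, and without replicate 1, 6 were lower. Foxc2, a forkhead gene of paraxial mesoderm, had 151, 134 and 266 normalised reads in p53KO cells against 870.3, 878 and 1389 in WT-emiRFP cells, a log2 fold change of −2.50 ± 0.33 (SE) and an edgeR adjusted p = 8.8e-05. Aldh1a2, which makes retinoic acid in somites, had 2304, 2825 and 3235 against 9698, 9192 and 10394, a log2 fold change of −1.81 ± 0.14 (SE) and an edgeR adjusted p = 3.4e-07. Tbx6, which commits cells to paraxial mesoderm, had 4518, 5121 and 6313 against 7795, 9141 and 9775, a log2 fold change of −0.74 ± 0.15 (SE) and an edgeR adjusted p = 0.0018. Msgn1, its partner in presomitic mesoderm, had 4004, 5080.0 and 5536 against 7711, 9212 and 8437, a log2 fold change of −0.80 ± 0.11 (SE) and an edgeR adjusted p = 1.0e-04. Every p53KO library was below every WT-emiRFP library for these genes. Foxc1 (−1.64 ± 0.24, SE) and Meox1 (−1.39 ± 0.12), transcription factors of the same tissue, were lower, whereas Dll3, a ligand of the segmentation clock, was not called (−0.18, adjusted p = 0.23, and 0.0095 with the replicate block).

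Against WT-mCherry cells, 7 of 14 were lower and 1 higher, and with the replicate block 11 and 1, where 39.5% of all genes were called (17.9% higher and 21.6% lower). The decreases were smaller there, with −1.32 for Foxc2, −1.24 for Aldh1a2, −0.43 for Tbx6 and −0.54 for Msgn1. The calls of Foxc2, Tbx6 and Msgn1 there were each lost in at least 1 alternative (adjusted p up to 0.16, 0.17 and 0.056). The same genes were 0.34, 0.49, 0.23 and 0.23 higher in WT-emiRFP than in WT-mCherry cells of WT+WT gastruloids, none of them called, and each called with the replicate block and with no low-count filter. Aldh1a2 was also called there with only the compared populations and without replicate 3.

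Genes of the primitive streak and nascent mesoderm were split at 96 h, with 4 of 14 higher and 7 lower (4 and 4 without replicate 1). The higher ones were T, Mixl1, Evx1 and Fgf8, the latter pair also on the caudal list. T, which encodes Brachyury and marks streak and tail bud, had 39280.0, 45780.3 and 39375 normalised reads in p53KO cells against 22714, 26873 and 21593 in WT-emiRFP cells, a log2 fold change of 0.81 ± 0.0837 (SE) and an edgeR adjusted p = 8.5e-06. The groups did not overlap. Mixl1, a homeobox gene of the streak, was at 1.01 ± 0.15 (SE). Against WT-mCherry the fold change of T was 0.31, a call that was lost in 2 alternatives (adjusted p up to 0.24). The lower ones were Lefty2, Mesp2, a regulator of somite borders (log2 fold change −1.12, adjusted p = 0.0033), Nodal, described with its pathway, Lhx1, a LIM homeobox gene of the node (log2 fold change −1.04, adjusted p = 1.5e-05), the ligand gene Wnt3 (log2 fold change −0.98, adjusted p = 0.016), Snai1, described with the adhesion genes, and Eomes, a T-box gene of early streak (log2 fold change −0.34, adjusted p = 0.046). The call of Eomes was lost in 11 of 15 alternatives, every one that left out a library or replicate among them (adjusted p up to 0.18), that of Wnt3 in 4 (adjusted p up to 0.25) and that of Mesp2 without replicate 1 (adjusted p = 0.12). Against WT-mCherry, 6 of 14 were higher and 3 lower (6 and 5 with the replicate block). Lefty2, a feedback inhibitor of Nodal, depended on the reference. It was at 2324, 2962 and 3398 normalised reads in p53KO cells, 7072, 9321 and 9430.5 in WT-emiRFP cells and 2496, 2976 and 3595 in the WT-mCherry cells of the same gastruloids, giving −1.57 (adjusted p = 6.3e-06) against the former and −0.06 (adjusted p = 0.82) against the latter. WT-emiRFP cells had 0.81 more than WT-mCherry cells on the log2 scale (adjusted p = 0.016, and 0.27 without replicate 2).

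**Figure D3:**
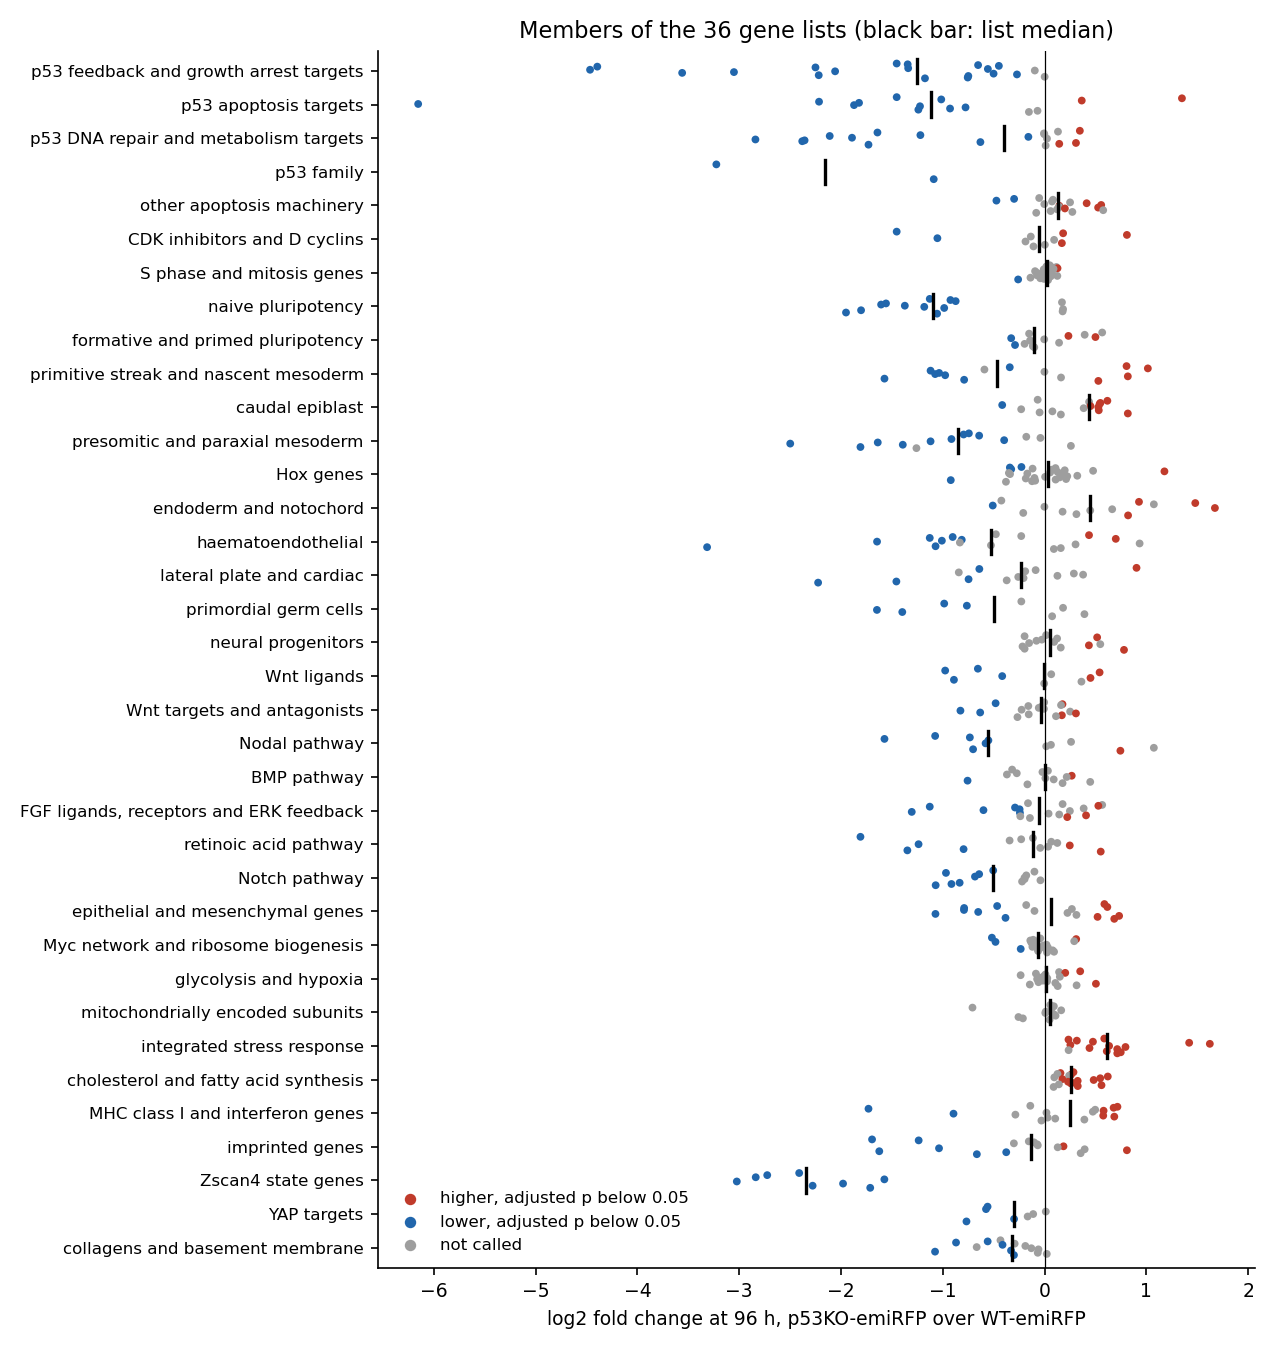
Log2 fold changes at 96 h of every tested member of the 36 gene lists, p53KO-emiRFP over WT-emiRFP, with red for called higher, blue for called lower, grey for not called and a black bar at each list's median. The p53 target, naive pluripotency, presomitic and Zscan4 lists lie mostly left of 0, and the caudal epiblast, integrated stress response and cholesterol lists mostly right of it.

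Among signalling genes, those of the Nodal and Notch pathways were mostly lower where they were called. Nodal signals through activin receptors to pattern streak mesoderm, and 6 of 11 genes tested were lower and 1 higher (6 and 2 with the replicate block). Nodal itself was at 1149.9, 1441 and 1136 against 2451, 2856 and 2530.0 normalised reads, a log2 fold change of −1.07 ± 0.12 (SE) and an edgeR adjusted p = 1.8e-05. Nodal was also lower than in WT-mCherry cells, by −0.92 (adjusted p = 7.2e-05), and the list had 0 higher and 4 lower (1 and 5 with the replicate block) there. Notch signalling drives the segmentation clock and somite borders, and 7 of 13 genes were lower and none higher (10 lower with the replicate block, 1 without replicate 1). Notch3, a receptor, was at 4648, 5693 and 5456 against 9002, 10490.2 and 11416 normalised reads (log2 fold change −0.97, adjusted p = 2.8e-06), and Nrarp, a feedback target, at 419, 358 and 659 against 845, 907 and 1275 (log2 fold change −1.07, adjusted p = 0.0059, and 0.11 without replicate 1). Against WT-mCherry, 1 of 13 Notch genes was lower, and with the replicate block 7 were lower and 2 higher. In WT-emiRFP cells, 8 of the 13 were higher than in WT-mCherry cells with that block, and 0 without it.

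The Wnt, FGF, BMP and retinoic acid lists held called genes of both directions, where 23.3% of all genes were called. Of 9 Wnt ligands tested, 2 were higher, Wnt3a (0.54) and Wnt5b (0.45), and 4 lower, among them Wnt6 (log2 fold change −0.89, adjusted p = 0.0017). Without replicate 1, or without p53KO-emiRFP replicate 1 alone, 1 ligand was lower. Nkd1, a target of canonical Wnt signalling, was not called (−0.16, adjusted p = 0.27, and 0.0093 with the replicate block). The list of Wnt targets and antagonists gave 3 higher and 3 lower of 17 (3 and 6 with the replicate block, none higher and 2 lower without replicate 1). Among 18 FGF pathway genes, 3 were higher and 6 lower (7 and 9 with the replicate block, 2 and 3 without replicate 1), the latter including the receptor gene Fgfr2 (log2 fold change −0.60, adjusted p = 2.5e-04) and Fgf10, a ligand of mesenchyme (log2 fold change −1.13, adjusted p = 3.6e-04). The BMP list had 1 of 13 higher and 1 lower, the inhibitory Smad7 at log2 fold change −0.76, adjusted p = 9.2e-06. Between 1 and 4 BMP genes were called with a library or replicate left out, Smad7 each time, and with the replicate block 3 were higher and 3 lower. In the retinoic acid pathway, 2 of 13 genes were higher and 4 lower. The receptor gene Rarb (log2 fold change −1.24, adjusted p = 4.2e-05) and the binding protein gene Crabp1 (log2 fold change −1.35, adjusted p = 4.3e-05) were lower with Aldh1a2, and Crabp2 was higher (log2 fold change 0.55, adjusted p = 2.2e-06). Against WT-mCherry, the Wnt ligands had 2 higher and 2 lower (2 and 2 with the replicate block) and the Wnt targets 2 higher and 0 lower (6 and 3 with the replicate block). There 5 FGF genes were higher and 6 lower. The BMP list had 2 higher and 1 lower there (2 and 3 with the replicate block), and the retinoic acid list 3 and 4 (6 and 5 with the block). None of the FGF, BMP and retinoic acid genes was called between the WT clones, and with the block 3 FGF, 1 BMP and 2 retinoic acid genes were higher and 2, 0 and 2 lower in WT-emiRFP cells.

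Between them, the lists of other lineages held called genes of both directions at 96 h, where 9.45% of all genes were higher and 13.8% lower. Of 13 genes of definitive endoderm and notochord, 4 were higher and 1 lower (6 and 2 with the replicate block, 2 and 1 without replicate 1, and 7 and 1 without WT-emiRFP replicate 2). Foxa2, a pioneer factor of both tissues, was at 228, 334 and 228 normalised reads in p53KO cells against 90.7, 123 and 66.9 in WT-emiRFP cells (log2 fold change 1.48, adjusted p = 5.7e-04), and was not called against WT-mCherry (0.38, adjusted p = 0.27, and 0.0034 with the replicate block). Of 17 haematoendothelial genes, 7 were lower and 2 higher, and without replicate 1 the list had 4 lower and none higher. The median was −0.53. Against WT-mCherry the list had 2 higher and 4 lower (3 and 5 with the replicate block), with a median of −0.14. Tek, which encodes the angiopoietin receptor TIE2, was at 8.46, 5.32 and 12.9 against 96, 79.1 and 99.8 (log2 fold change −3.32, adjusted p = 4.1e-07), and Lmo2, a transcriptional cofactor of blood progenitors, at 1414, 1540.4 and 2095 against 3235, 3331 and 4474 (log2 fold change −1.13, adjusted p = 3.4e-04). Tek was already lower by −1.16 at 0 h and −3.14 at 72 h, while Kdr, the VEGF receptor of the same lineage, was not called at 96 h (−0.48, adjusted p = 0.06, and 0.011 with the replicate block). Of 14 lateral plate and cardiac genes tested, 1 was higher and 4 lower (0 and 2 without replicate 1). Tbx4, a T-box gene of posterior lateral plate, was at 38.4, 29.8 and 30.2 against 185, 132 and 147 (log2 fold change −2.23, adjusted p = 5.5e-06). Primordial germ cell genes were lower for 4 of 8, Nanos3 (log2 fold change −1.65, adjusted p = 1.4e-06), Itgb3 (log2 fold change −1.40, adjusted p = 3.9e-06), Tfap2c (log2 fold change −0.76, adjusted p = 4.3e-06) and Prdm14 (log2 fold change −0.99, adjusted p = 3.2e-04), and none was higher. Neural progenitor genes gave 3 of 14 higher and none lower, with Sox3 (log2 fold change 0.52, adjusted p = 0.0029) and Nes, an intermediate filament gene (log2 fold change 0.78, adjusted p = 1.2e-08), among the higher ones. Against WT-mCherry the endoderm and notochord list had 3 higher and 2 lower (6 and 2 with the replicate block) and the lateral plate list 1 higher and 3 lower (1 and 5 with the replicate block). The germ cell list had 1 higher and 4 lower (1 and 4 with the replicate block) and the neural list 5 higher and 2 lower (6 and 4 with the replicate block) there.

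Hox genes, which record axial position in 3' to 5' order along each cluster, were mostly not called at 96 h. Of 28 genes, 1 was higher and 4 lower, where 23.3% of all genes were called, and 1 lower without replicate 1, with a median of 0.03. With the replicate block 7 were higher and 8 lower, where 38.6% of all genes were called. The higher one without the block was Hoxa10, a posterior gene, at 96.8, 90.5 and 124 against 40.9, 42.9 and 54.5 normalised reads (log2 fold change 1.18, adjusted p = 9.8e-04). Against WT-mCherry of the same gastruloids the counts were 7 higher and 1 lower (16 and 2 with the replicate block). At 72 h, 13 of 24 were higher in p53KO than in WT-emiRFP cells and 0 lower, where 13.4% of all genes were higher. At 120 h, 26 of 28 were higher and 0 lower, where 27.3% of all genes were higher.

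Adhesion genes were called in both directions against WT-emiRFP. Cdh1, which encodes E-cadherin, was at 20216, 21070.3 and 18874 against 13612, 14253 and 12148 normalised reads (log2 fold change 0.59, adjusted p = 1.4e-04), and Epcam, an epithelial adhesion molecule, at 5851, 6166 and 5470.3 against 3914, 4197 and 3286 (log2 fold change 0.62, adjusted p = 6.9e-04). Snai1, the repressor of E-cadherin, was at 1149.9, 1405 and 1572 against 1944, 2573 and 2616 (log2 fold change −0.79, adjusted p = 8.2e-04), and Fn1, fibronectin, at 50676, 52708 and 65979.6 against 112026, 103373 and 140765 (log2 fold change −1.07, adjusted p = 9.7e-05). Over the list of 16 genes, 5 were higher and 6 lower. Against WT-mCherry only 1 and 2 were called (3 and 5 with the replicate block), with the higher gene Esrp1, a splicing factor of epithelia, at 0.27 (adjusted p = 0.033, up to 0.27 in 2 alternatives that lost the call). There the fold changes were 0.22 for Cdh1 (adjusted p = 0.078, and 6.5e-05 with the replicate block) and −0.34 for Fn1 (adjusted p = 0.1, and 1.2e-07 with the block). Fn1 was higher in WT-emiRFP than in WT-mCherry cells (0.63, adjusted p = 0.038, up to 0.44 in 3 alternatives that lost the call). Of 14 collagen and basement membrane genes, 6 were lower and none higher, with 2 lower without replicate 1 and 3 without p53KO-emiRFP replicate 1. Lama1, a laminin chain, was at −1.08 (adjusted p = 1.3e-04), and against WT-mCherry 6 genes of this list were lower and 1 higher. Of 7 YAP target genes tested, 4 were lower, 2 without replicate 1, and none higher, among them Axl, a receptor kinase (log2 fold change −0.77, adjusted p = 3.4e-04), and 3 were lower against WT-mCherry.

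A pair of metabolic programmes was higher in p53KO cells. The integrated stress response couples amino acid shortage and other stresses to ATF4, which induces amino acid synthesis and transport. Of its 15 genes, 14 were higher and none lower, with a median of 0.61, and 7 were higher without replicate 1 and 9 without replicate 2. Trib3, a pseudokinase target of ATF4, was at 1676, 1963 and 1463 normalised reads in p53KO cells against 587, 819 and 495 in WT-emiRFP cells (log2 fold change 1.42, adjusted p = 2.0e-04). Phgdh, the first enzyme of serine synthesis, was at 17847, 19946 and 16399.6 against 9933, 11632 and 9655 (log2 fold change 0.80, adjusted p = 2.9e-05), and Psat1, the next one, at 37364, 38410.5 and 33852 against 23219, 25387 and 22019.9 (log2 fold change 0.63, adjusted p = 1.2e-05). The p53KO libraries were above the WT-emiRFP libraries for these 3 genes. Against WT-mCherry, 6 of 15 were higher, with 0.70 for Trib3, 0.48 for Phgdh and 0.35 for Psat1, and these 3 calls were lost without replicate 1 (adjusted p = 0.23, 0.08 and 0.089). Between the WT clones 1 of 15 was higher in WT-emiRFP cells and none lower (3 and 3 with the replicate block). At 72 h, 11 of 15 were higher than in WT-emiRFP cells, where 13.4% of all genes were higher. Other time points gave fewer. At 0 h 1 was higher, where 1.97% of all genes were, and at 48 h 5 were higher and 1 lower, where 10.3% and 11.7% were. At 120 h 7 were higher and 1 lower, where 27.3% and 23.7% were, and at 144 h 6 and 6, where 65.4% of all genes were called.

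Cholesterol and fatty acid synthesis genes, which SREBP factors control, were higher for 13 of 18 and lower for none, with a median of 0.26. The changes were small. Lss, lanosterol synthase, was at 9024, 9440.3 and 8803 against 6340.0, 6232 and 6082 normalised reads (log2 fold change 0.55, adjusted p = 2.8e-07), Dhcr7, the last step to cholesterol, at 6259, 6833 and 5866 against 4410.1, 4689 and 4464 (log2 fold change 0.48, adjusted p = 2.3e-05), and Scd1, a fatty acid desaturase, at 22545, 23997 and 23008 against 15575, 15618 and 15994 (log2 fold change 0.56, adjusted p = 1.2e-07). Each p53KO library exceeded each WT-emiRFP library for these genes. Against WT-mCherry, 6 of 18 were higher and none lower (10 higher with the replicate block). Between the WT clones none was called, and with the block 8 were lower in WT-emiRFP cells and none higher. At 72 h 16 of 18 were higher against WT-emiRFP, where 13.4% of all genes were higher. Other time points gave fewer, with 2 higher at 0 h and 3 at 48 h, where 1.97% and 10.3% of all genes were higher. At 120 h 6 were higher and 3 lower, where 27.3% and 23.7% were, and at 144 h likewise 6 and 3, where 65.4% of all genes were called. Glycolysis and hypoxia genes gave 3 of 20 higher, 1 without replicate 1, and none lower (5 and 2 with the replicate block), where 9.45% of all genes were higher and 13.8% lower (17.4% and 21.1% with the block). Vegfa, a hypoxia-induced growth factor, was at log2 fold change 0.50, adjusted p = 1.4e-04. None of 12 mitochondrially encoded genes was called, at a median of 0.05. Of 22 genes of the Myc network and ribosome biogenesis, against the same shares of all genes, 1 was higher, Mycl (log2 fold change 0.31, adjusted p = 7.7e-04), and 3 lower, among them Myc at 1725, 1781 and 1810.2 against 2332, 2585 and 2694 normalised reads (log2 fold change −0.52, adjusted p = 5.9e-05), and with the replicate block 4 were higher and 8 lower. Against WT-mCherry the glycolysis list had 1 higher and 3 lower (3 and 9 with the replicate block) and the Myc list 1 higher and 5 lower (2 and 8 with the replicate block).

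**Figure D4:**
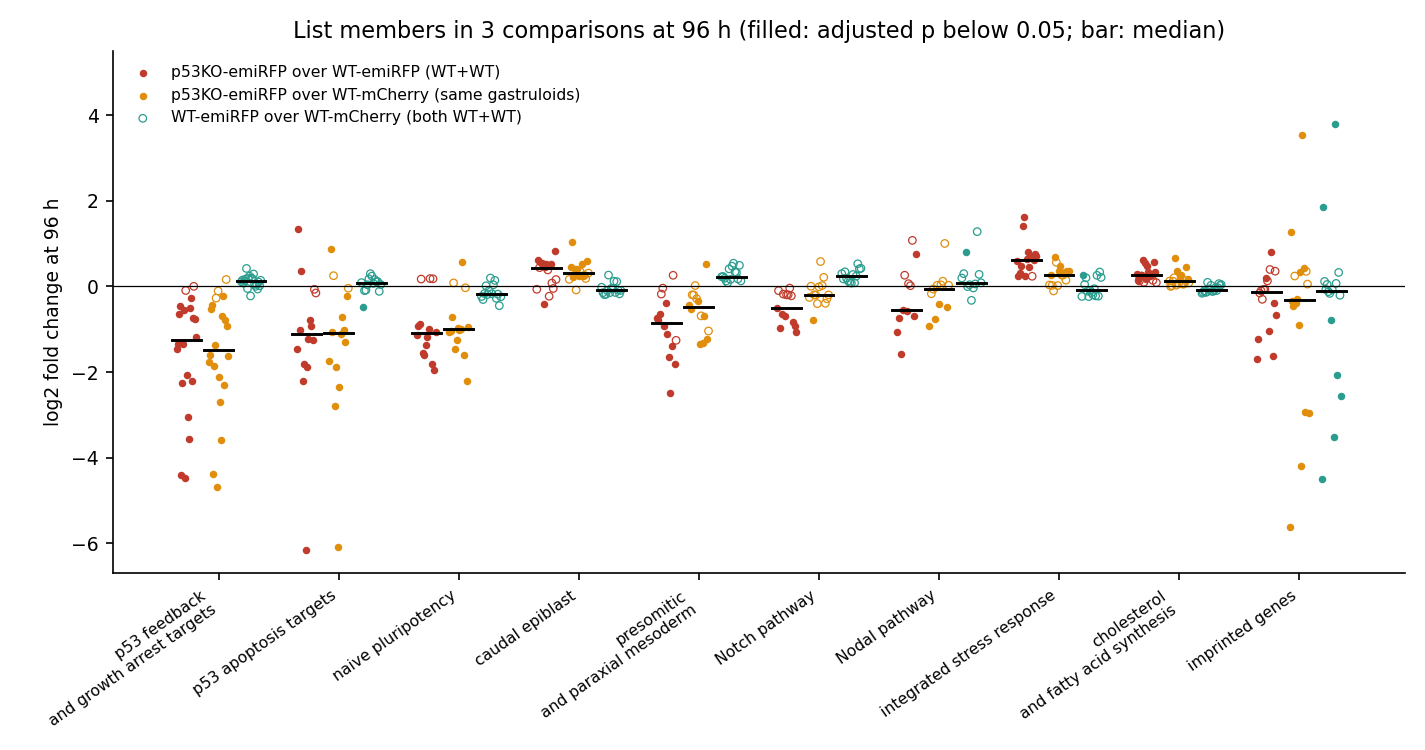
Log2 fold changes at 96 h of the members of 10 gene lists in 3 comparisons: p53KO-emiRFP over WT-emiRFP (red), p53KO-emiRFP over WT-mCherry of the same gastruloids (orange) and WT-emiRFP over WT-mCherry of WT+WT gastruloids (green), with filled points called and bars at medians. Red and orange medians lie near each other for the p53 target and naive lists, while for the Notch, Nodal and integrated stress response lists the orange bars lie nearer to 0.

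The 10 largest increases among genes with a mean of at least 1 log2 CPM were H2-T-ps (2.17), Miip (1.88), Aldh1l2 (1.66), Chac1 (1.62), Kcnj3 (1.62), Foxa2 (1.48), Trib3 (1.42), Usp26 (1.38), Pim2 (1.36) and Pmaip1 (1.35). H2-T-ps is a pseudogene of the MHC class I family whose reads its paralogs can share, so its value is uncertain. Usp26, a deubiquitinase gene of the X chromosome, was at 572, 465 and 768 against 257, 184 and 253 normalised reads, a log2 fold change of 1.38 ± 0.17 (SE) and an edgeR adjusted p = 4.1e-05, and at 1.39 against WT-mCherry (adjusted p = 3.7e-05). Its difference was 1.34 at 0 h and 1.99 at 72 h. Aldh1l2, a mitochondrial folate enzyme induced by ATF4, was at 423, 443 and 411 against 143, 152 and 109 (log2 fold change 1.66, adjusted p = 2.6e-06). Chac1, which degrades glutathione and is another ATF4 target, was at 1379, 1857 and 1251 against 435, 685 and 331, and its call was lost without replicate 1 (adjusted p = 0.051). Miip, Kcnj3 and Pmaip1 were also lower in WT-emiRFP than in WT-mCherry cells, by −0.98, −0.54 and −0.47 on the log2 scale, calls that were lost in 1, 5 and 2 alternatives, each without replicate 1 (adjusted p up to 0.25, 0.25 and 0.23). Against WT-mCherry the p53KO fold changes of these genes were 0.56 (adjusted p = 0.0065, and 0.094 without replicate 1), 0.44 and 0.87. Pim2, a survival kinase, was called against WT-emiRFP (log2 fold change 1.36, adjusted p = 0.0029, and 0.11 without replicate 1) and not against WT-mCherry (0.30, adjusted p = 0.49, and 1.7e-06 with the replicate block).

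Immune, imprinted and 2-cell-like genes gave further contrasts. Tap1, the peptide transporter of MHC class I loading and a p53 target, was at 374, 523 and 377 normalised reads against 1301, 1499.8 and 1401 (log2 fold change −1.73, adjusted p = 2.1e-07), while H2-K1, a class I heavy chain, was at 3892, 4674 and 3888 against 2502, 2826 and 2246 (log2 fold change 0.72, adjusted p = 9.8e-05). Over 16 class I and interferon genes, 5 were higher and 2 lower, with 8 and 4 with the replicate block, 1 and 1 without replicate 1, and 2 and 2 without WT-emiRFP replicate 3 or p53KO-emiRFP replicate 2. Against WT-mCherry 1 was higher and 3 lower (5 and 3 with the block), and between the WT clones 1 was higher in WT-emiRFP cells and 0 lower (8 and 0 with the block). Some imprinted genes depended on the WT reference. Of the list, 2 of 16 were higher and 6 lower against WT-emiRFP (5 and 8 with the replicate block, 1 and 4 without replicate 1), and 4 and 9 against WT-mCherry. H19, a maternally expressed RNA, was at 139.9, 167 and 219.9 in p53KO cells, 525, 679 and 497 in WT-emiRFP cells and 7826, 6477 and 11539 in the WT-mCherry cells of the same gastruloids. Igf2, the growth factor gene next to it, was lower than in WT-emiRFP cells (log2 fold change −1.24, adjusted p = 2.8e-04) and higher than in WT-mCherry cells (1.27, adjusted p = 4.6e-04). Both clones of the emiRFP lineage thus sat far from WT-mCherry for H19, and the WT clones alone differed by −4.51 (adjusted p = 9.6e-08). The Zscan4 group marks a rare 2-cell-like state of mES cells. All 8 of its tested genes were lower, with a median of −2.35, and 4 were called without replicate 2. Zscan4c was at 24.6, 4.26 and 4.31 against 118, 75.3 and 61.8 normalised reads (log2 fold change −2.84, adjusted p = 4.4e-04), and its near-identical paralogs can share reads, so single members are uncertain.

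Markers of tissues that gastruloids should lack, or of handling, were also read. Of 11 extraembryonic endoderm genes, 7 were tested, of which 1 was higher and 2 lower (1 and 4 with the replicate block). Their summed level was 13845 to 16103 normalised reads in p53KO libraries and 15642 to 16414 in WT-emiRFP libraries, nearly all of it Lamb1, a laminin chain shared with other tissues. The defining genes Afp, Ttr, Apoa1 and Apoa2 stayed at or below 6.18 normalised reads in all 6 libraries. Cubn, an endocytic receptor on that list, was at 19.2, 47.9 and 17.2 against 508, 185 and 132 (log2 fold change −3.36, adjusted p = 5.4e-04), and had been lower by −2.51 at 0 h. Of 9 trophoblast genes, 7 were tested, of which 1 was higher and 1 lower (1 and 3 with the block), with sums of 1772.5 to 2007 and 2944 to 3364 normalised reads, and Tpbpa and Prl3d1 were at 0 in all 6 libraries. Among 9 immediate early and heat shock genes that respond to dissociation, 1 was higher and 2 lower (2 and 4 with the block), with sums of 8226 to 8781 and 8051 to 8811. Jun was at 201, 225 and 194 against 822, 612 and 575 (log2 fold change −1.70, adjusted p = 1.5e-04), Ier2 was higher (log2 fold change 0.24, adjusted p = 0.014, up to 0.21 in 3 alternatives that lost the call), and Egr1 was not called (−0.25, adjusted p = 0.25, and 0.013 with the replicate block). Their part in the other results was not tested.

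More genes were called between p53KO and WT-emiRFP cells at the end of the culture than at its start. Each time point had its own fit, and the 0 h libraries were mES cell cultures rather than populations sorted from mixed gastruloids. Counts of calls therefore also reflect the spread and number of libraries in each fit. The genes called at each time were 1129 of 18395 at 0 h (6.14%), 3896 of 17662 at 48 h (22.1%), 5147 of 17714 at 72 h (29.1%), 4269 of 18356 at 96 h (23.3%), 9631 of 18901 at 120 h (51.0%) and 12675 of 19391 at 144 h (65.4%). Of the 2534 genes lower at 96 h, 506 were lower at 0 h, which is 20% of the former and 66.1% of the 0 h decreases. At 72 h, 1222 of them were lower (48.2% of the 96 h decreases and 44.1% of the 72 h decreases), and at 120 h 1502 (59.3% and 33.6%). Of all genes tested, 4.16% were lower at 0 h, 15.7% at 72 h and 23.7% at 120 h. At 120 h, 465 (18.4%) of the 2534 were higher, below the 27.3% of all genes tested that were higher at that time. Of the 1735 genes higher at 96 h, 134 were higher at 0 h, where 1.97% of all genes were higher (7.72% of these and 36.9% of the 0 h increases) and 625 at 72 h (36% and 26.3%), where 13.4% of all genes were higher. No library was used at more than 1 time point, but the clones were the same throughout. The p53 targets differed at each time. The p53 feedback and arrest list had 16 of 20 lower at 0 h, where 4.16% of all genes were lower, 16 at 72 h and 16 at 120 h, where 15.7% and 23.7% were, and Ccng1 differed by −3.74, −4.80 and −3.64.

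An interaction contrast in 1 fit of all 69 libraries tested whether the difference at 96 h departed from that at 72 h. It called 2333 of 21121 genes (11.0%), 1166 with a higher difference at 96 h (5.52%) and 1167 with a lower one (5.53%). Without each replicate in turn the counts were 934, 922 and 1319. Aldh1a2 had the largest downward shift, at −2.83 ± 0.32 (SE, adjusted p = 5.3e-09). In WT-emiRFP cells it rose from 50.8 ± 10.7 normalised reads at 72 h to 9762 ± 603 at 96 h, and the p53KO values were 103 ± 12.6 and 2788 ± 467 (mean ± SD, n = 3). Accsl (−2.58), Hoxd9 (−2.57), Hoxc8 (−2.48) and Emp1 (−2.42) followed. The largest upward shifts were those of Gjb5, a connexin gene (2.66), Phlda3 (2.22), Gm53 (2.01), Parp10, a mono-ADP-ribosyltransferase (1.95), and Zfp750 (1.85). Gjb5, for example, was −3.73 at 72 h and −1.08 at 96 h, and Phlda3 −5.27 and −3.05, so these genes remained lower in p53KO cells by a smaller amount. The shifts of Zfp750, Hoxc8 and Emp1 were not called with at least 1 replicate left out (adjusted p up to 0.25, 0.18 and 0.098).

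Between 96 and 120 h the difference turned for paraxial mesoderm genes. The contrast of 120 h against 96 h called 6503 of 21121 genes (30.8%), 3560 with a higher difference at 120 h (16.9%) and 2943 with a lower one (13.9%), and 4195 without replicate 2. Msgn1 shifted by 5.48 ± 0.35 (SE, adjusted p = 1.1e-18) and Tbx6 by 4.62 ± 0.21 (adjusted p = 5.1e-24). In WT-emiRFP cells Tbx6 went from 75.7 ± 7.08 normalised reads at 72 h to 8904 ± 1011 at 96 h and 418 ± 55.7 at 120 h. In p53KO cells it went from 83.1 ± 12.9 to 5317 ± 913 and 6125 ± 820.0. The WT-emiRFP level was thus far below its 96 h value at 120 h, while the p53KO values at 96 and 120 h lay within about 1 SD of each other. In WT-emiRFP cells T was at 51830.5 ± 6454 at 72 h, 23726 ± 2782 at 96 h and 1589.8 ± 239 at 120 h. The p53KO values of T were 42853 ± 2119, 41478 ± 3726 and 10996 ± 964. Aldh1a2 (3.97), Pcdh19, a protocadherin gene of somites (3.88), and Adamtsl2 (3.80) shifted upward as well. At 120 h, 12 of 15 presomitic genes were higher in p53KO cells and 0 lower, where 27.3% and 23.7% of all genes were, against none higher and 10 lower at 96 h. Of Hox genes, 23 of 28 had a higher difference at 120 h than at 96 h. The largest downward shifts were those of Gm49089 (−4.80), 3830417A13Rik (−3.10), Tmem92 (−2.99), Eif4a3l1 (−2.97) and Gm12800 (−2.70), of which Gm49089, Eif4a3l1 and Gm12800 were not called without replicate 1 or without replicate 2 (adjusted p up to 0.83, 0.2 and 0.14). The shift of Gm49089 rested on replicate 1, without which it was −1.13.

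**Figure D5:**
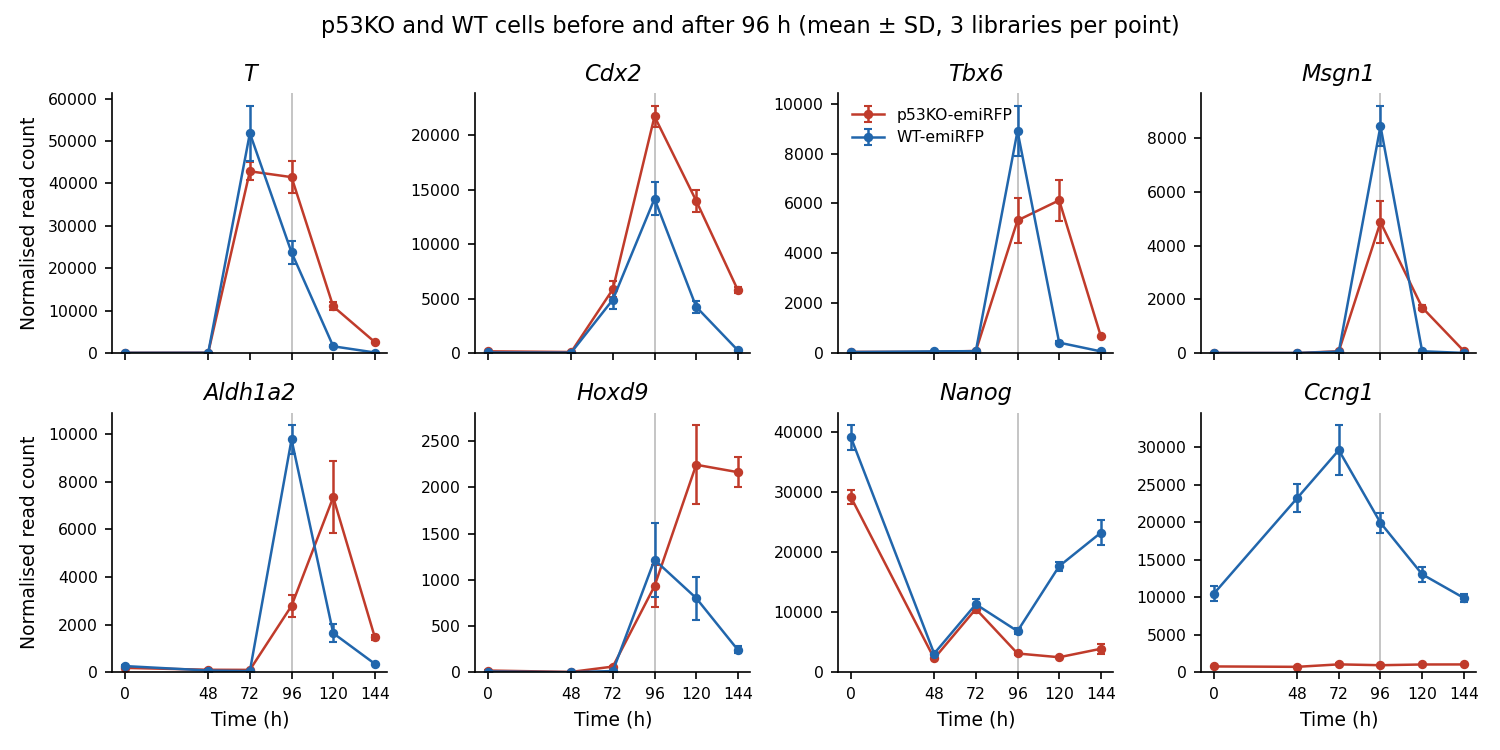
Normalised read counts (mean ± SD, 3 libraries per point) of 8 genes from 0 to 144 h in p53KO-emiRFP (red) and WT-emiRFP cells (blue), with a grey line at 96 h. Tbx6, Msgn1 and Aldh1a2 peak at 96 h in WT-emiRFP cells and are lower there in p53KO cells, which hold more of each at 120 h, while Ccng1 stays low in p53KO cells throughout.

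No chromosome stood apart as a whole. Of the genes tested, 17953 (97.8%) had a single annotated position, and the median log2 fold change per chromosome ranged from −0.04 to 0.02 at 96 h and from −0.03 to 0.03 at 0 h.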

How the data were processed

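RNA-seq was deposited for 23 conditions with 3 libraries each (69 in all), of which 20 were sorted populations and 3 were mES cell cultures at 0 h, and 12 libraries at 96 h entered the comparisons above. The deposited table holds counts. Per the labels and the study's methods, the authors trimmed reads with Trim Galore 0.6.7, aligned them with STAR 2.7.11b to GRCm38.p6 and kept uniquely mapped reads per gene, so genes with near-identical copies lose reads. Samples were grouped by their labels, and no column was left without a sample.

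Here the counts were scaled by median-of-ratios size factors over all 69 libraries, filtered with filterByExpr and fitted with the edgeR 4.0.16 quasi-likelihood test in R 4.3.3 over the 12 libraries at 96 h, with Benjamini-Hochberg adjustment over all 18356 genes tested and a threshold of 0.05. SE is the absolute log2 fold change divided by the square root of F. Other time points were fitted in the same way, each on its own libraries, and interactions on all 69 libraries. An exact permutation of 3 against 3 libraries cannot go below p = 0.1, so none was run. Alternatives were DESeq2 1.42.0, TMM, no filter, a minimum fold, all libraries, only the compared populations, the replicate block and leaving libraries out. The alternatives for the chromosome medians, and for named genes in the interactions and against WT-mCherry, were chosen after seeing the data.

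The study describes replicates as separate experiments. Same-numbered p53KO and WT-emiRFP libraries deviated together, with correlations of 0.291, 0.42 and 0.491 over 14106 genes, and so did the other pairs at 96 h (0.198 to 0.554), so the numbers pair the libraries. On simulated counts with 200 genes changed by a factor of 2, the 96 h edgeR test over 18251 genes recovered 90.5%, with 4.23% of its calls false. DESeq2 recovered 87.5%, with 9.79% of its calls false. The simulated libraries carried no shared replicate deviation, and fewer genes changed than were called here. These rates may therefore not hold for the data. The members and the 36 gene lists and marker lists were chosen with earlier results of these data known. Genes named are list members, the 10 largest rises and falls at 96 h among called genes of mean log2 CPM at least 1 that moved alike in all 3 pairs, and the 5 largest shifts in each direction per interaction. Positions come from Gencode vM21 and promoter windows from RefSeq (GRCm38.p6). The values of 1 member of a list are not reported here.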

Additional observations from a re-analysis of the deposited data

Results flagged for a closer look

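The difference between p53KO and WT-emiRFP cells at 96 h departed from that of the neighbouring time points in an interaction contrast, and these are the genes with the largest shifts. Against 72 h, 2333 genes were called. The named ones were Gjb5 (2.66), Phlda3 (2.22), Gm53 (2.01), Parp10 (1.95) and Zfp750 (1.85), whose p53KO over WT-emiRFP log2 fold change was higher at 96 h, and Aldh1a2 (−2.83), Accsl (−2.58), Hoxd9 (−2.57), Hoxc8 (−2.48) and Emp1 (−2.42), for which it was lower. Against 96 h, 6503 genes were called at 120 h. The named ones were Msgn1 (5.48), Tbx6 (4.62), Aldh1a2 (3.97), Pcdh19 (3.88) and Adamtsl2 (3.80), with a higher difference at 120 h, and Gm49089 (−4.80), 3830417A13Rik (−3.10), Tmem92 (−2.99), Eif4a3l1 (−2.97) and Gm12800 (−2.70), with a lower one. Without replicate 1 the shift of Gm49089 was −1.13 and not called (adjusted p = 0.83), and Gm49089, Eif4a3l1 and Gm12800 were each not called without replicate 1 or without replicate 2. Zfp750, Hoxc8 and Emp1 were likewise not called against 72 h with at least 1 replicate left out. At 72 h Emp1 was at 8.37 normalised reads in p53KO and 4.25 in WT-emiRFP cells (means of 3 libraries), and Hoxc8 at 34.2 and 7.07, so their 72 h fold changes rest on few reads. Aldh1a2 was lower in the p53KO cells at 96 h and higher at 120 h, and Msgn1 and Tbx6 likewise. No group of 3 libraries was searched for single outlying libraries.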

How the results depend on the processing

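The p53KO against WT-emiRFP comparison called 4269 genes at 96 h, and 1848 to 4171 with a replicate number or a single library left out, the fewest without replicate 1. It called 7081 with the replicate block and 982 with a minimum absolute log2 fold change of 1. TMM normalisation, no low-count filter, DESeq2, all 69 libraries or only the compared populations kept the count within 1.5 times. The split by direction moved with TMM, to 2115 higher and 2338 lower, against 1735 and 2534 in the main fit. The shares of higher and lower genes thus depend on the normalisation. Against WT-mCherry of the same gastruloids 4330 genes were called, 7245 with the block, 1009 with the minimum fold, and 1928 to 3577 with a replicate left out. Between the WT clones 395 were called, 2927 with the block, 760 by DESeq2, 1045 with no low-count filter, 164 with only the compared populations, 54 with the minimum fold, and 30 to 312 with a replicate left out. The shift between 72 and 96 h had 2333 calls, 528 with the minimum fold and 922 to 1319 with a replicate left out, and that between 96 and 120 h 6503, 2382 and 4195 to 5127. Where the replicate block changed the printed call of a named gene, this is given beside that call, and no other printed call of a named gene was changed by it. The spread between the highest and lowest chromosome median was 0.0588, 0.0366 with no low-count filter and 0.0492 to 0.0811 with a library or replicate left out. Of the named genes, H2bc14 and Sesn1 changed sign around 0. H2bc14 was at −0.055 without WT-emiRFP replicate 1 and −0.080 without p53KO-emiRFP replicate 2, and between −0.080 and 0.081 over the settings that leave out a library or replicate number. Sesn1 was at −0.026 without WT-emiRFP replicate 1 and −0.009 without p53KO-emiRFP replicate 1, and between −0.036 and 0.028 over those settings. Where calls were lost with a replicate left out, the fit had fewer libraries, and no further cause was tested. Each group held 3 libraries of 1 clone. The spread was estimated over the 12 libraries at 96 h, and over all 69 for the interactions. The p-values thus measure spread between libraries and not between clones. Genes at a few reads per library limit the folds of the largest decreases.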

Other observations

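Several genes below the level cut for named genes differed as sharply at 96 h, and these were picked after their values were seen. Anxa8, an annexin gene, was at 0, 0 and 0 normalised reads in the p53KO libraries and at 52.5, 40 and 28.8 in the WT-emiRFP libraries, and Nkx2-9, a homeobox gene, at 0, 0 and 1.73 against 60.5, 88.7 and 80.3. The WT-mCherry cells of the WT+p53KO gastruloids held 69.1, 60.6 and 48 for Anxa8 and 137, 108 and 78.4 for Nkx2-9. In the other direction, Col8a2, a collagen chain, was at 81.5, 115 and 106 against 20.4, 22.9 and 21.6 (log2 fold change 2.21, adjusted p = 5.2e-06), with 24.1, 31.4 and 15.7 in the WT-mCherry cells of the same gastruloids, and Gjb2, a connexin gene, at 95.3, 95.8 and 94.9 against 24.9, 22.9 and 21.6 (log2 fold change 2.03, adjusted p = 6.5e-05). The p53KO and WT-emiRFP libraries did not overlap for these 4 genes.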
